A study of Mus musculus with 17 samples.

Results

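The genes described here make, break down or sense extracellular ATP, other extracellular nucleotides and adenosine: the enzymes Entpd1, Nt5e, Enpp4 and Ada, the nucleotide receptors P2rx4, P2rx7, P2ry6 and P2ry14, and the adenosine receptors Adora2a and Adora2b. They are 10 of the 31091 gene identifiers in the count table and were taken by symbol. Enpp4 was chosen on its fall in cDC1s with BimS debris, so its values in cDC1s are given as a description, with no test. All 10 were found in the table. All are protein-coding genes, and in GRCm39 they span, with the strand, Entpd1 (chr19:40600810-40731585, +), Nt5e (chr9:88209089-88254146, +), Enpp4 (chr17:44407146-44416863, -), P2rx4 (chr5:122845541-122867803, +), P2rx7 (chr5:122781942-122830400, +), P2ry6 (chr7:100585308-100624173, -), P2ry14 (chr3:59021276-59061134, -), Adora2a (chr10:75152560-75170628, +), Adora2b (chr11:62139804-62157279, +) and Ada (chr2:163565705-163592159, -). P2rx7 and P2rx4 lie side by side on one strand.

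RNA was sequenced from conventional dendritic cells (cDCs) of mouse spleen, in 17 samples. CD11c+ cells of female C57BL/6JRj mice carrying B16-FLT3L tumors, with spleens of several mice pooled, were cultured with GM-CSF for 6 h and with medium from TC-1 cells, and cDC1s and cDC2s were then sorted as whole populations, whether or not a cell had taken up debris. TC-1 is a lung epithelial tumor line of C57BL/6 origin that carries HPV16 E6 and E7 and activated H-ras. Medium came from live wild-type cells (WT), from TC-1-iBimS cells, a clone that dies by apoptosis when the BH3-only protein BimS is induced, or from TC-1-iRIPK3 cells, a clone that dies by necroptosis when RIPK3 fused to an oligomerizing domain is induced. All TC-1 cells, WT cells included, had received the inducer cumate. There were 3 samples in each of the groups cDC1 WT, cDC1 BimS, cDC1 RIPK3, cDC2 WT and cDC2 BimS, and 2 samples of cDC2s with RIPK3 medium. Nothing in the labels says that samples of a group came from separate cultures or animals, so p-values measure the spread between these samples, which may be technical.

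Cells that die release ATP, which neighboring cells read as a danger signal through P2X channels and P2Y receptors. On the cell surface CD39, encoded by Entpd1, removes phosphates from ATP and ADP to give AMP, CD73 (Nt5e) turns AMP into adenosine, and adenosine dampens immune cells through the receptors encoded by Adora2a and Adora2b until adenosine deaminase (Ada) converts it to inosine. P2X4 and P2X7 are ATP-gated channels, the latter best known for inflammasome activation at high ATP, while P2Y6 responds to UDP and P2Y14 to UDP-glucose and UDP. Enpp4 encodes a membrane-bound pyrophosphatase/phosphodiesterase that can hydrolyze diadenosine triphosphate and ATP.

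Libraries held 16095159 to 21645289 reads in genes. A level is given as CPM, read counts scaled to library size with TMM factors over all samples, and 3 counts in a sample correspond to 0.135 to 0.191 CPM. The summed level of 6 cDC1 markers (Clec9a, Xcr1 and others) was 1350 to 1668 CPM in cDC1 samples and 77 to 103 CPM in cDC2 samples, and that of 6 cDC2 markers (Sirpa, Clec10a and others) was 266 to 362 CPM in cDC2 samples and 2.53 to 4.06 CPM in cDC1 samples. These sums moved with the medium. That of the cDC1 markers in cDC1s was 1494 to 1668 CPM with WT, 1380 to 1533 with BimS and 1350 to 1404 with RIPK3 medium, and that of the cDC2 markers in cDC2s was 317 to 362, 298 to 325 and 266 to 305 CPM. The single markers did not move together. In the same order of media, mean CPM in cDC1s fell for Irf8 (310, 185, 177), Wdfy4 (598, 527, 452) and Itgae (44.2, 32.2, 24.8). It rose for Clec9a (242, 289, 287) and Xcr1 (153, 208, 228), and Cadm1 changed little (217, 218, 212). In cDC2s Irf4 (36.9, 16.5, 12.9), Clec10a (21.8, 17.5, 11) and Cd209a (45.1, 38.6, 31.9) fell. Sirpa (191, 188, 182), Itgam (47.2, 54.2, 46.4) and Cd4 (1.33, 0.98, 1.41) showed no such fall. Irf8 and Irf4 are transcription factors of the respective subset. The part of these shifts in the changes below was not tested. In bulk samples, fewer expressing cells and less RNA per cell cannot be told apart. A change was called where the adjusted p of the quasi-likelihood test of edgeR, fitted over all genes tested, was under 0.05. The comparisons with WT medium share the WT samples.

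Promoters are shown for 4 of the 5 genes whose groups with RIPK3 medium did not overlap those with WT medium in either subset and lay on the same side in both (the other is P2rx4, with smaller differences). The difference of Enpp4 in cDC2s did not pass the test. Entpd1 and P2ry6 had higher levels and Enpp4 and P2ry14 lower levels with RIPK3 medium in cDC1s as well as in cDC2s. Each sequence covers 250 bases before and 50 bases from the start of the canonical transcript in GRCm39, 5′ to 3′ on the strand of the gene, and capitals mark the letters of a searched motif.
Entpd1 (chr19:40647964-40648263, + strand): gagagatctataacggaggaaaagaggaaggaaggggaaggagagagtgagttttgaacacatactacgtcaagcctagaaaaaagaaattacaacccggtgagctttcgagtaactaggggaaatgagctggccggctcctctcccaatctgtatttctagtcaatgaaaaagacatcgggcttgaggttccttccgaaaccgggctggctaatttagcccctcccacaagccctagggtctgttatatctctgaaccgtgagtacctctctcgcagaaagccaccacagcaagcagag
P2ry6 (chr7:100613611-100613910, - strand): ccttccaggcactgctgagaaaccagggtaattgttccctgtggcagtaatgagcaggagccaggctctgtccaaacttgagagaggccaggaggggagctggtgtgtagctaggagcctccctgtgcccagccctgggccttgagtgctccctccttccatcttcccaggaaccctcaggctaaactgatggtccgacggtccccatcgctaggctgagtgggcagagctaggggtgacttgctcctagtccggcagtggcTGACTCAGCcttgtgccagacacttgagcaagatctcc
Enpp4 (chr17:44416814-44417113, - strand): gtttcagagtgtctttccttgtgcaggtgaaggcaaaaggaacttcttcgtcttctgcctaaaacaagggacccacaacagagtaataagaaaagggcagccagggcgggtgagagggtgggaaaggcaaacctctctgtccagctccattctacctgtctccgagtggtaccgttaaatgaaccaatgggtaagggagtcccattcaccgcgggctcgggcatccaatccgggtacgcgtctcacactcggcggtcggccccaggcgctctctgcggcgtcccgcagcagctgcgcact
P2ry14 (chr3:59037994-59038293, - strand): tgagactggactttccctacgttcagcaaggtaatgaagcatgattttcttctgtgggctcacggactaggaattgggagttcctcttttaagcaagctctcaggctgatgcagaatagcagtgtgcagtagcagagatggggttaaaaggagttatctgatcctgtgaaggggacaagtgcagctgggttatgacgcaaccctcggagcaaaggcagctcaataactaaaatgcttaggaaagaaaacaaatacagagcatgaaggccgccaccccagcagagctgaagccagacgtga

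The letters of 4 motifs were searched on both strands of these windows, and of 21770 promoters of protein-coding genes of the same length. The core of the interferon-stimulated response element, GAAANNGAA, occurred in 8.78% of all promoters and in 0 of those of the 10 genes. The cyclic AMP response element TGACGTCA, to which factors downstream of adenosine receptors can bind, occurred in 2.44% of all promoters and also in 0 of the 10. The core of the antioxidant response element, TGACNNNGC, occurred in 12.5% of all promoters and in those of P2rx4, P2rx7 and P2ry6. The AP-1 site TGACTCA occurred in 4.7% and in those of P2rx7 and P2ry6. In P2ry6 the AP-1 match lies inside the antioxidant match, TGACTCAGC, 13 bases into the transcript. A match is a description of letters and not of binding, and its absence says only that the letters are not in the window.

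Entpd1 was higher with debris in both subsets. In cDC1s it was at 73.7, 78.9 and 83.1 CPM with WT medium, at 161, 185 and 174 CPM with BimS medium, and at 169, 203 and 188 CPM with RIPK3 medium. In cDC2s it was at 35.3, 42.0 and 34.4 CPM with WT medium, at 82.6, 108 and 88.9 CPM with BimS medium, and at 105 and 127 CPM with RIPK3 medium. Every sample with debris lay above every WT sample of its subset. With RIPK3 medium Entpd1 rose 2.37-fold in cDC1s (log2 fold change 1.24, SE 0.0644, adjusted p = 3.55e-14) and 3.12-fold in cDC2s (1.64, SE 0.124, adjusted p = 5.61e-08). With BimS medium it rose 2.51-fold in cDC2s (1.33, SE 0.114, adjusted p = 3.46e-07), and in cDC1s, where the comparison served the choice of genes and no test of any gene is given, its level was 2.21-fold that with WT medium. RIPK3 against BimS gave a log2 fold change of 0.10 in cDC1s (95% interval -0.02 to 0.22, adjusted p = 0.491) and of 0.32 in cDC2s (95% interval 0.08 to 0.56, adjusted p = 0.449). With the replicate number as a block, which within a subset pairs the samples, the latter was 0.28 with an adjusted p of 5.11e-05, and in both numbers present in the RIPK3 group the RIPK3 sample was above the BimS sample.

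Enpp4 went the opposite way. In cDC1s it was at 29.3, 30.2 and 29.3 CPM with WT medium, at 13.3, 14.9 and 12.6 CPM with BimS medium, and at 8.23, 9.98 and 9.68 CPM with RIPK3 medium, so that the 3 groups did not overlap and the RIPK3 samples were lowest. The log2 fold change was -1.12 (SE 0.0862) with BimS and -1.68 (SE 0.0916) with RIPK3 medium, and -0.56 (SE 0.0989) between RIPK3 and BimS. Enpp4 ranked 2 among 887 falls in cDC1s with BimS medium that passed the test, averaged 3 log2 CPM or more and had groups without overlap. Just inside the first 3 places was Abca1 (-1.08) and just outside were Snx22 (-1.04) and Ifi44 (-1.03), with Scd1 (-1.26) first. In cDC2s Enpp4 was close to the limit of detection, at 1.54, 1.26 and 0.644 CPM (30, 22 and 12 counts) with WT medium, 1.10, 0.963 and 1.01 CPM with BimS medium and 0.382 and 0.583 CPM (6 and 10 counts) with RIPK3 medium. There the log2 fold change was -0.17 with BimS (SE 0.338, adjusted p = 0.857) and -1.23 with RIPK3 medium (SE 0.445, adjusted p = 0.118, groups without overlap). The latter was -1.38 with an adjusted p of 0.0117 with the replicate block, and -1.52 with an adjusted p of 0.0218 without WT replicate 3. Exons of the antisense gene Enpp5 cover 20.6% of the exons of Enpp4, and whether counting used strand is not given in the sources used here. Enpp5 had 0 to 7 counts in any sample.

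The other enzymes were scarce. For Nt5e, counts were 0 to 3 in each sample of cDC1s, and 7, 3 and 4 (WT), 4, 2 and 3 (BimS) and 1 and 7 (RIPK3) counts in cDC2 samples. At this depth a change of CD73 transcripts was not detectable, and no fold is given. Ada was between 0.51 and 1.65 CPM in cDC1s and between 0.296 and 0.862 CPM in cDC2s, with overlapping groups throughout. Its log2 fold change with RIPK3 medium was 0.06 in cDC1s (95% interval -0.69 to 0.81, adjusted p = 0.959) and 0.21 in cDC2s (95% interval -0.81 to 1.23, adjusted p = 0.899). The antisense gene Pkig, at 9.16 to 16.0 CPM, covers 20.2% of the exons of Ada, so part of the few Ada reads may belong to either gene.

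**Figure D1:**
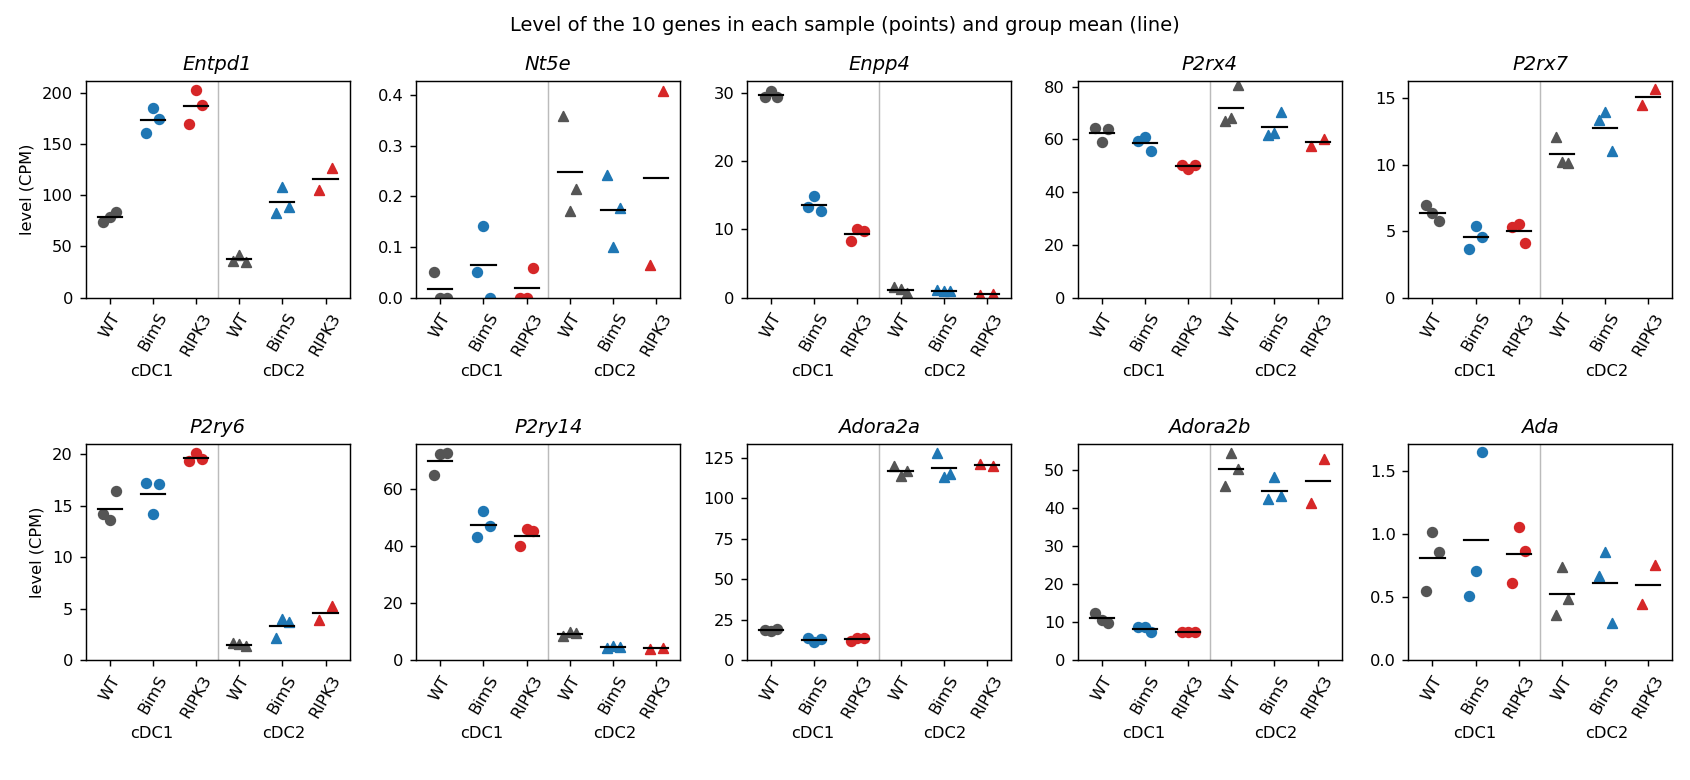
Level in CPM (vertical axes, from 0, scale per gene) of each of the 10 genes in every sample (points, circles for cDC1 and triangles for cDC2) with the group mean (line), for WT (grey), BimS (blue) and RIPK3 (red) medium. Entpd1 is higher with debris in both subsets, P2ry14 is lower in both, Enpp4 is lower in cDC1s and near 0 in cDC2s, and Adora2a and Adora2b are several times higher in cDC2s.

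Of the receptors for UDP and UDP-sugars, one fell and one rose. P2ry14 was at 64.8, 72.2 and 72.3 CPM in cDC1s with WT medium, at 43.0, 52.2 and 46.9 CPM with BimS medium and at 39.9, 45.8 and 45.1 CPM with RIPK3 medium. The cDC2 samples had 8.46, 9.99 and 9.45 CPM, 4.32, 4.82 and 4.80 CPM, and at 4.01 and 4.43 CPM in the same order of media. All samples with debris were below all WT samples in both subsets. P2ry14 fell with RIPK3 medium in cDC1s (log2 fold change -0.69, SE 0.0693, adjusted p = 1.99e-09) and in cDC2s (-1.14, SE 0.169, adjusted p = 0.000125), and with BimS medium in cDC2s (2-fold, SE 0.144 on the log2 scale, adjusted p = 0.000113). In cDC1s with BimS medium its log2 fold change was -0.56 (SE 0.0685). P2ry6 was at 14.2, 13.6 and 16.4 CPM in cDC1s with WT medium, at 17.2, 14.2 and 17.1 CPM with BimS medium and at 19.4, 20.1 and 19.6 CPM with RIPK3 medium. Only the RIPK3 samples stood clear of the WT samples. In cDC2s it was at 1.69, 1.54 and 1.34 CPM, at 2.19, 4.01 and 3.73 CPM, and at 3.88 and 5.24 CPM, and both debris groups lay above WT. P2ry6 rose with RIPK3 medium 1.33-fold in cDC1s (0.41, SE 0.0927, adjusted p = 0.00102) and 2.99-fold in cDC2s (1.58, SE 0.265, adjusted p = 0.000481). With BimS medium it rose 2.17-fold in cDC2s (1.12, SE 0.25, adjusted p = 0.0071), a call that was lost without BimS replicate 2 (0.95, adjusted p = 0.0669). Between RIPK3 and BimS medium in cDC1s the log2 fold change of P2ry6 was 0.28 (SE 0.092, adjusted p = 0.084), and the replicate block gave an adjusted p of 0.013.

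The ATP-gated channels were measured next. P2rx4 was at 64.3, 59.0 and 63.9 CPM in cDC1s with WT medium, at 59.2, 60.8 and 55.6 CPM with BimS medium and at 50.4, 48.7 and 50.4 CPM with RIPK3 medium, the last group being below all other cDC1 samples. It fell with RIPK3 medium against WT (-0.33, SE 0.0588, adjusted p = 4.93e-05) and against BimS medium (-0.24, SE 0.0591, adjusted p = 0.0124), the latter not without BimS replicate 2 (-0.21, adjusted p = 0.0805) or RIPK3 replicate 2 (-0.22, adjusted p = 0.0708). In cDC2s P2rx4 was at 66.9, 68.2 and 80.5 CPM with WT, 61.7, 62.4 and 70.2 CPM with BimS and 57.4 and 60.2 CPM with RIPK3 medium. Its log2 fold changes there were -0.15 (SE 0.0914, adjusted p = 0.419) and -0.29 (SE 0.103, adjusted p = 0.114), and with the replicate block -0.15 (adjusted p = 0.0243) and -0.21 (adjusted p = 0.00557). P2rx7 was at 6.97, 6.36 and 5.77 CPM in cDC1s with WT, at 3.67, 5.42 and 4.58 CPM with BimS and at 5.32, 5.52 and 4.09 CPM with RIPK3 medium. The cDC2 samples were at 12.1, 10.2 and 10.1 CPM, at 13.4, 14.0 and 11.0 CPM, and at 14.5 and 15.7 CPM. Its level was thus lower with debris in cDC1s and higher with RIPK3 debris in cDC2s, without overlap between those groups. In cDC1s the log2 fold change with RIPK3 medium was -0.35 (SE 0.151, adjusted p = 0.117, and 0.0484 with the replicate block), and with BimS medium -0.47 (SE 0.152). In cDC2s it was 0.24 with BimS medium (SE 0.127, adjusted p = 0.336) and 0.48 with RIPK3 medium (SE 0.141, adjusted p = 0.0422). The last call was lost when any of 6 samples was left out, with adjusted p between 0.0543 and 0.318 (WT replicates 2 and 3, BimS replicates 1 and 2, or either RIPK3 replicate).

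The adenosine receptors were lower in cDC1s than in cDC2s and fell in cDC1s with RIPK3 medium. Adora2a was at 18.4, 17.9 and 19.2 CPM in cDC1s with WT, at 13.6, 11.4 and 13.4 CPM with BimS and at 12.2, 14.0 and 14.0 CPM with RIPK3 medium. Levels in cDC2s were 120, 114 and 117 CPM, 128, 113 and 115 CPM, and 121 and 120 CPM, and the groups overlapped. Adora2a fell in cDC1s with RIPK3 medium (-0.47, SE 0.0937, adjusted p = 0.000256) and had a log2 fold change of -0.53 (SE 0.0935) with BimS medium. In cDC2s it was 0.02 with BimS medium (95% interval -0.13 to 0.18, adjusted p = 0.924) and 0.04 with RIPK3 medium (95% interval -0.13 to 0.22, adjusted p = 0.883). Adora2b was at 12.5, 10.6 and 9.83 CPM in cDC1s with WT, at 8.62, 8.77 and 7.36 CPM with BimS and at 7.47, 7.35 and 7.43 CPM with RIPK3 medium. It fell in cDC1s with RIPK3 medium (-0.57, SE 0.118, adjusted p = 0.000378), and with BimS medium its log2 fold change was -0.41 (SE 0.115). In cDC2s Adora2b was at 45.7, 54.5 and 50.2 CPM, at 42.4, 48.1 and 43.2 CPM, and at 41.3 and 52.8 CPM. The log2 fold change was -0.17 with BimS medium (95% interval -0.37 to 0.03, adjusted p = 0.425, and 0.0186 with the replicate block) and -0.09 with RIPK3 medium (95% interval -0.32 to 0.14, adjusted p = 0.771).

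**Figure D2:**
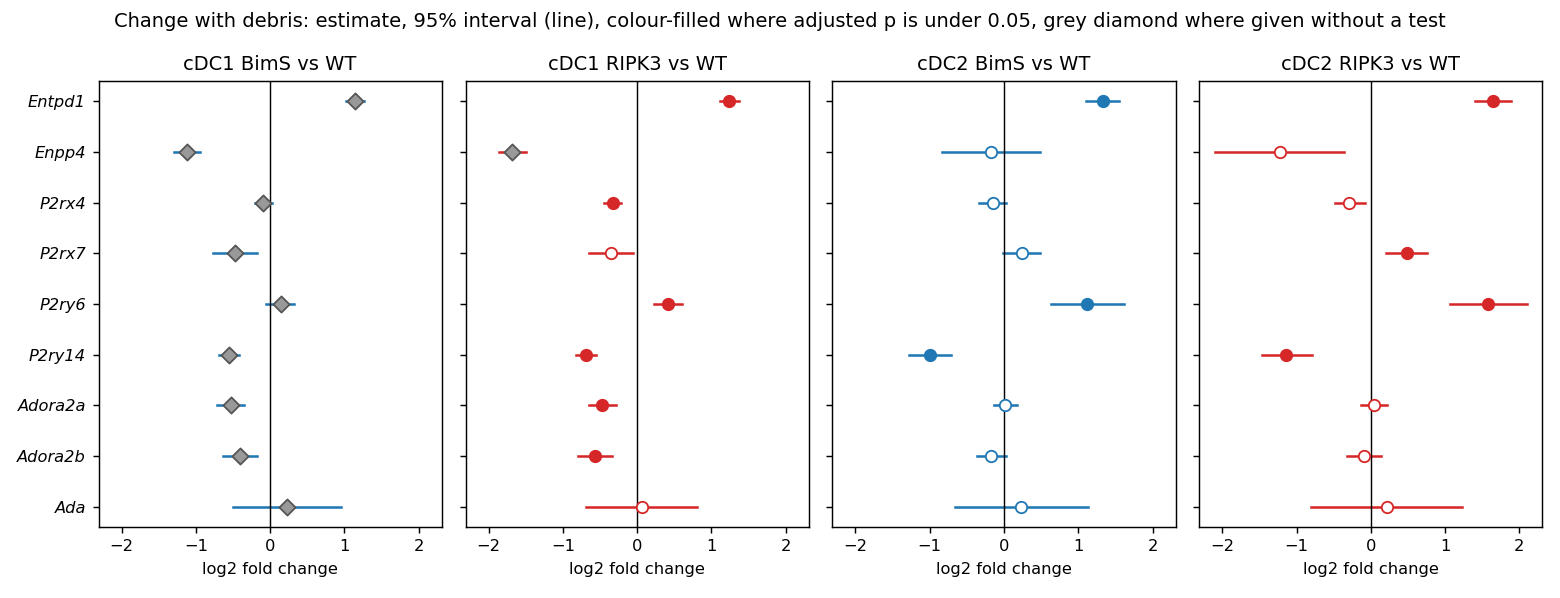
Log2 fold change against WT medium (horizontal axes) of 9 genes in the 4 comparisons with WT, with its 95% interval. Filled circles passed an adjusted p of 0.05, open circles did not, and grey diamonds are given without a test. Entpd1 lies right of 0 and P2ry14 left of 0 in all 4 panels, while Adora2a and Adora2b lie left of 0 in cDC1s and near 0 in cDC2s. Nt5e is not drawn because of its low counts.

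Enpp4 is left out of the following counts in cDC1s. The other members were also listed with earlier results of these data known. The counts here and below, set beside the share of all genes, are therefore a description. Of the other 8 genes tested, 6 passed with RIPK3 medium in cDC1s, 2 up and 4 down, where 16.5% of all 19513 genes passed (8.34% up and 8.19% down). Their median log2 fold change was -0.34, against -0.01 over all genes. With BimS medium in cDC1s 5 of 8 were called, 1 up and 4 down, beside 13.2% of all genes (7.31% up and 5.89% down), and since Enpp4 was chosen on this comparison nothing is read from that count. RIPK3 against BimS medium in cDC1s gave 1 of 8, P2rx4, which fell, beside 4.15% of all genes (1.94% up and 2.21% down). With the replicate block P2ry6 passed as well, beside 8.87% of all genes. In cDC2s 3 of 10 passed with BimS medium, 2 up and 1 down, beside 7.01% of all genes (3.8% up and 3.21% down), and with the replicate block 5 of 10, beside 21.3% of all genes. With RIPK3 medium 4 of 10 passed, 3 up and 1 down, beside 7.21% (3.93% up and 3.28% down), and with the replicate block 6 of 10, beside 21.4%. The 1387 genes behind the 7.21% became 622 without RIPK3 replicate 2, 658 without RIPK3 replicate 1 and 916 without WT replicate 2. RIPK3 against BimS medium in cDC2s gave 0 of 10 with edgeR, 2 at an unadjusted p under 0.05 and 0 with DESeq2, beside 0.379% of all genes, and with the replicate block 1 of 10, beside 14.3%. The 73 genes behind the 0.379% ran from 0, without RIPK3 replicate 2, to 214, without WT replicate 3. Median log2 fold changes were -0.07 with BimS and 0.00 with RIPK3 medium, against -0.02 over all genes in each.

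The difference between the subsets in their response was tested as an interaction, the change in cDC1s less that in cDC2s. Leaving out Enpp4, for RIPK3 medium 3 of 9 genes passed, all negative, beside 1.14% of all genes tested (0.66% positive and 0.477% negative). Here and in the other interactions the 9 include Nt5e, which had 0 to 3 counts in cDC1s and did not pass. No test is read from Nt5e. P2ry6 rose less in cDC1s than in cDC2s (difference in log2 fold change -1.18, SE 0.259, adjusted p = 0.0151). P2rx7 had a difference of -0.84 (SE 0.206, adjusted p = 0.0349), where its change in cDC1s alone did not pass, and Adora2a of -0.52 (SE 0.116, adjusted p = 0.0165). These calls rest on few samples. The call of P2ry6 was lost without cDC2 RIPK3 replicate 2 (-0.94, adjusted p = 0.281), that of Adora2a without any of 4 samples (adjusted p between 0.0577 and 0.0767), and that of P2rx7 without any of 8 (adjusted p between 0.0515 and 0.196). Entpd1 (-0.41, SE 0.148, adjusted p = 0.311, and 0.00685 with the replicate block), P2ry14 (0.44, SE 0.165, adjusted p = 0.327) and Adora2b (-0.49, SE 0.158, adjusted p = 0.179) did not pass, nor did P2rx4 (-0.05, SE 0.113, adjusted p = 0.956). For BimS medium 1 of 9 was called, Adora2a at -0.56 (SE 0.111), beside 0.87% of all genes, with no test read from it. For RIPK3 against BimS medium 0 of 9 passed with edgeR and 0 were at an unadjusted p under 0.05, beside 0.0314% of all genes, and 0 passed with DESeq2. That share is 6 genes, and leaving out a sample gave 0 (cDC2 RIPK3 replicate 2) to 10 (cDC2 WT replicate 3).

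**Figure D3:**
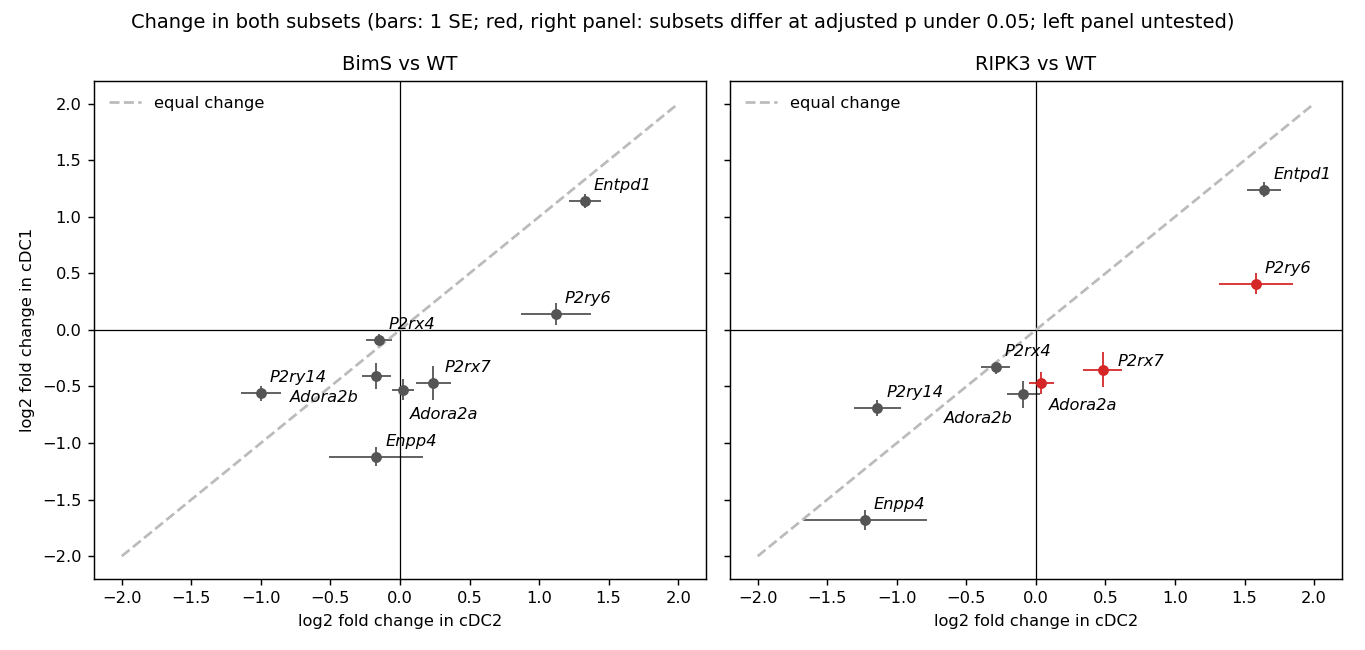
Log2 fold change against WT medium in cDC1s (vertical axis) and cDC2s (horizontal axis) of 8 genes, with 1 SE, for BimS and RIPK3 medium, and a dashed line where both would be equal. In the right panel P2ry6, P2rx7 and Adora2a (red) lie below the line and differed between subsets. The left panel is drawn without a test, and Nt5e and Ada are left out for their low counts.

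The subsets were compared with media averaged. Across media and leaving out Enpp4 and Nt5e, 7 of 8 genes differed between cDC1s and cDC2s, 3 higher in cDC1s and 4 in cDC2s, beside 59.8% of all genes (30.4% higher in cDC1s and 29.4% in cDC2s). P2ry14 was 8.83-fold higher in cDC1s (log2 difference 3.14, SE 0.0716, adjusted p = 5.55e-26), P2ry6 5.62-fold (2.49, SE 0.143, adjusted p = 3.66e-12) and Entpd1 1.84-fold (0.88, SE 0.0699, adjusted p = 3.23e-10, with samples that overlapped over all media). For Enpp4 the log2 difference was 4.26 (SE 0.125), given without a test. Higher in cDC2s were Adora2a by 8.05-fold (-3.01, SE 0.0716, adjusted p = 1.39e-21), Adora2b by 5.36-fold (-2.42, SE 0.0714, adjusted p = 9.32e-23) and P2rx7 by 2.41-fold (-1.27, SE 0.111, adjusted p = 2.35e-10). The average hides a dependence on the medium for genes with a called interaction. Mean levels in cDC1s and cDC2s were 14.7 and 1.52 CPM for P2ry6 with WT medium and 19.7 and 4.56 CPM with RIPK3 medium, and for P2rx7 they were 6.37 and 10.8 CPM and then 4.98 and 15.1 CPM. For P2rx4 the difference was small (-0.21, SE 0.0449, adjusted p = 0.000179), its samples overlapped between subsets over all media but not within a medium, and it was -0.01 (adjusted p = 0.874) by limma on unscaled log2 counts, where the median over all genes lay at 0.20. Nt5e entered this fit only through its cDC2 samples, so no test is read from it. Ada did not (0.57, SE 0.256, adjusted p = 0.0568), and passed when any of 7 samples was left out, with adjusted p between 0.0233 and 0.0434, and with the replicate block (0.54, adjusted p = 0.0491).

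Levels of different genes were compared per length, as CPM per kb of exon. In cDC1s with WT medium Entpd1 was highest at 11 (SD 0.658, n = 3), followed by P2rx4 at 8.01 (SD 0.375). P2ry14 at 6.21, Adora2b at 5.94 and Enpp4 at 5.62 followed and overlapped between neighbors, and Adora2a (3.51), P2ry6 (2.26), P2rx7 (0.652), Ada (0.153) and Nt5e (0.00191) each lay below the one before. With BimS medium Entpd1 reached 24.4 (SD 1.68) and Enpp4 was at 2.58, overlapping P2ry6 at 2.49, which in turn overlapped Adora2a at 2.43. With RIPK3 medium Entpd1 was at 26.2 (SD 2.4), and Enpp4 at 1.77 lay below P2ry6 (3.03) and Adora2a (2.55). In cDC2s with WT medium the adenosine receptors led, Adora2b at 27.1 (SD 2.37) and Adora2a at 22.2 (SD 0.559), above P2rx4 at 9.22 and Entpd1 at 5.23. With debris Entpd1 was above P2rx4 in cDC2s as well, at 13.1 against 8.31 with BimS and 16.3 against 7.55 with RIPK3 medium. Adora2b and Adora2a then overlapped, at 24.1 and 22.6 and at 25.4 and 22.9. P2rx7 (1.11 with WT medium) stayed next in cDC2s with each medium. P2ry14 (0.828) was above P2ry6 (0.234) with WT medium and below it with RIPK3 medium, at 0.375 against 0.7 (SD 0.148, n = 2).

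**Figure D4:**
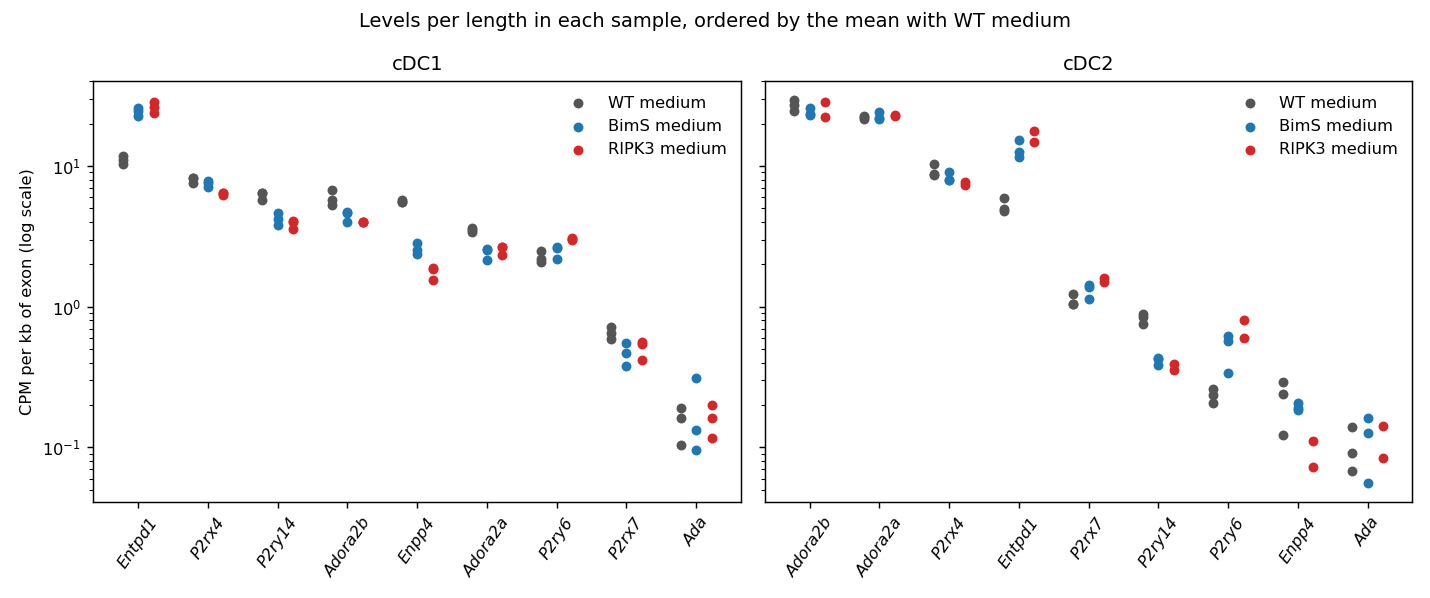
Level per length (vertical axis, log scale, CPM per kb of exon) of 9 genes in each sample, ordered by the mean with WT medium in cDC1s (left) and cDC2s (right). Entpd1 heads the cDC1 panel with every medium, and in cDC2s it is below P2rx4 with WT medium and above it with debris, while Adora2b and Adora2a stay on top. Nt5e is not drawn.

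A further 49 genes of nucleotide release, breakdown, uptake and sensing were counted, of which 46 were in the table. In cDC1s 37 were tested, and 6 were past the threshold with BimS medium (2 up, 4 down), a description in that comparison, 6 passed with RIPK3 medium (4 up, 2 down) and 3 between them (2 up, 1 down). These are 16.2%, 16.2% and 8.11% of the list, beside 13.2%, 16.5% and 4.15% of all genes, so the first and the second share are near the background. In cDC2s 39 were tested, and 5 passed with BimS medium (2 up, 3 down), 3 with RIPK3 medium (2 up, 1 down) and 0 between them by edgeR, or 12.8%, 7.69% and 0% of the list beside 7.01%, 7.21% and 0.379% of all genes. With the replicate block 10 were past it with BimS medium in cDC1s (17.9% of all genes), and in cDC2s there passed 10 with BimS (21.3%), 5 with RIPK3 medium (21.4%) and 1 between them (14.3%). Their median log2 fold changes with RIPK3 medium were 0.00 in both subsets when rounded. Dpp4, a serine peptidase of the cell surface (CD26), fell with RIPK3 medium from 222 to 141 CPM in cDC1s (-0.66, SE 0.0494, adjusted p = 4.77e-13) and from 69.9 to 42.3 CPM in cDC2s (-0.73, SE 0.106, adjusted p = 0.00011), and with BimS medium in cDC2s (-0.62, SE 0.0932, adjusted p = 0.000158). Panx1, which forms a channel that releases ATP, rose in cDC2s from 21.5 CPM with WT medium to 35.2 with BimS (0.70, SE 0.108, adjusted p = 0.000215) and, with RIPK3 medium, 32.8 CPM (0.61, SE 0.12, adjusted p = 0.00238). P2ry1, a receptor for ADP, rose in cDC1s from 2.71 to 4.17 CPM with RIPK3 medium (0.64, SE 0.219, adjusted p = 0.0478), and its level with BimS medium was 5.48 CPM (1.03, SE 0.209, given without a test). P2rx5, an ATP-gated channel, rose with RIPK3 medium in cDC2s from 2.94 to 5.36 CPM (0.87, SE 0.204, adjusted p = 0.00993).

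Some genes of the list were at low levels. In cDC1s the mean with WT and BimS medium was 3.5 and 2.17 CPM for Cd38, an enzyme that consumes NAD (-0.68, SE 0.186), and 3.44 and 2.29 CPM for Pycard, the inflammasome adaptor ASC (-0.58, SE 0.186), both given without a test. Pycard fell in cDC2s with BimS medium (-1.11, SE 0.317, adjusted p = 0.0378), as did Slc17a9, the vesicular nucleotide transporter (-1.25, SE 0.318, adjusted p = 0.0184). Panx2 passed in cDC1s with RIPK3 medium at 4 to 7 counts a sample against 0 to 2 with WT medium (adjusted p = 0.0472, and 0.0541 with the replicate block). Between subsets 30 of 37 passed, 15 in each direction, which is 81.1% of the list beside 59.8% of all genes. P2rx5 (4.56) and P2ry1 (3.80) were higher in cDC1s and Panx1 (-3.06) in cDC2s by these log2 differences, with adjusted p of edgeR from 1.47e-29 to 1.5e-15. Alpl, which encodes an alkaline phosphatase (3.38), had 7 to 20 counts in cDC1s and 0 to 2 in cDC2s. The adenosine receptor gene Adora3 (3.03) had 0 to 14 and 0 to 3 counts. Gja1, encoding connexin 43 (-3.15), had 0 to 5 and 3 to 19 counts. Samples of Adora3 and Gja1 overlapped between subsets. These genes are among those that passed, but they entered the fit mainly through the subset where they are higher, so no test is read from them. In the interactions 0 of 37 passed by edgeR without the replicate block for any medium.

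The genes whose pattern over samples was most like that of Enpp4 were taken by Pearson correlation of log2 CPM among genes with a mean of at least 3 log2 CPM. Over all 17 samples, among 7783 genes, they were Stx17 (r = 0.9874), Slamf7 (0.9857), Sema4a (0.9846), Zdhhc9 (0.9844) and Tbc1d14 (0.9843). These samples span both subsets, between which Enpp4 had a log2 difference of 4.26. The part of that difference in this order was not tested. Over the 9 cDC1 samples, among 7860 genes, they were Itgb1 (0.9956), B4galnt1 (0.9913), Zfp710 (0.9911), Slc14a1 (0.9897) and Ak3 (0.9880). These values are a description of samples that share media and libraries and carry no test.

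Markers of other cells were counted in the same samples. Over all samples the summed level was 0.306 to 1.48 CPM for 5 B cell markers, 0.602 to 2.36 CPM for 5 T cell markers, 0.0511 to 1.95 CPM for 4 NK cell markers, 1.51 to 11.8 CPM for 6 macrophage markers, 0 to 1.45 CPM for 5 neutrophil markers and 0.154 to 1.49 CPM for 3 erythroid genes in the table. The NK cell sum in cDC1s was 0.602 to 1.04 CPM with WT, 0.613 to 0.765 with BimS and 0.0511 to 0.405 with RIPK3 medium. It was thus lower with RIPK3 medium without overlap. The sum came nearly all from Klre1, at means of 0.801, 0.65 and 0.231 CPM. Ncr1, Klrb1c and Gzma had means of 0 with WT medium and of at most 0.0329 CPM with debris. The part of this sum in the results was not tested. The sum of 4 plasmacytoid dendritic cell markers was 35 to 47.4 CPM in cDC1s and 157 to 189 CPM in cDC2s and came nearly all from Tcf4, with Siglech at 0.112 to 0.563 CPM in group means. In cDC1s this sum was 40.6 to 47.4 CPM with WT, 37.6 to 40.5 with BimS and 35 to 44.4 with RIPK3 medium. In cDC2s it was 172 to 189, 172 to 185 and 157 CPM, the last without overlap with WT medium. Among 7 markers of adherent tumor cells in the table the sum was 2.91 to 4.25 CPM in cDC1s and 18.6 to 39.1 CPM in cDC2s, in the latter nearly all Cdh1, while group means of Krt8 were at most 0.104 CPM. In cDC2s it was lower with RIPK3 than with WT medium, at 18.6 to 25.1 against 30.8 to 39.1 CPM (means 21.8 and 34). With BimS medium it was 21.5 to 35.2 CPM (mean 27), which overlapped WT medium. The sum of 3 platelet markers in the table was 4.51 to 16 CPM, and in cDC1s Pf4 was at a mean of 0.388 CPM with WT, 3.82 with BimS and 3.09 CPM with RIPK3 medium, Itga2b at 4.78, 4.04 and 4.42 CPM, and Gp9 at 0.017, 0 and 0 CPM. The macrophage sum in cDC1s was 3.25 to 6.59 CPM with WT, 1.51 to 2.52 CPM with BimS and 2.71 to 4.67 CPM with RIPK3 medium. The BimS samples thus lay below the WT samples and the RIPK3 samples overlapped them. For Enpp4, P2ry14, P2rx7, Adora2a and Adora2b the samples with either debris lay below the WT samples. The part of these markers in the changes of the 10 genes was not tested.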

How the data were processed

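Polyadenylated RNA of sorted cDC1s and cDC2s was sequenced in paired-end reads. The authors trimmed reads with SeqPurge, aligned them with STAR 2.7.10a to GRCm39 with Ensembl gene models, counted reads per gene with gensum, and deposited raw counts without normalization, the unit used here. The deposited normalized log2 table was not used. Of 31239 lines, 148 without a gene identifier (0.0258% to 0.0366% of counts) were left out. Of 31091 identifiers 30854 matched GENCODE M39, from which symbols, exon lengths and transcript starts were taken.

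Counts were tested in R 4.3.3 with edgeR 4.0.16 (quasi-likelihood, robust, TMM) on genes that had a count above 0 in 50% or more of the fitted samples, adjusted by Benjamini-Hochberg over all genes tested at a threshold of 0.05. The 9 cDC1 and 8 cDC2 samples were fitted apart, and all 17 together for cDC1s against cDC2s (with medium as a term) and for interactions. The study's methods name limma and a log2(count + 1) transformation. Limma on log2(count + 1) was run as an alternative, with the same adjusted p and no threshold on the fold change. The other alternatives were DESeq2 1.42.0, RLE size factors, filterByExpr, no filter, the replicate number as a block, and leaving out each sample. Scripts were tested on simulated data.

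The members and gene lists were chosen with earlier results of these data known. All 10 members were named, and of the list of 49 up to 6 genes per comparison that passed, with a log2 fold change of at least 0.5. Pairing by replicate number was checked by correlating the samples' deviations from group means. Within a subset the correlation was above 0.1 in 16 of 16 pairs with the same number (median 0.355) and in 4 of 32 with different numbers, and across subsets in 19 of 24 with the same number, so the numbers pair the samples within subsets. Across subsets the design does not say what a number shares, and the blocked value is a hint only. Calls in the text come from fits without this pairing, except where the replicate block is named. Reads carry no molecular identifiers, so count limits cover counting error alone.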

Additional observations from a re-analysis of the deposited data

Results flagged for a closer look

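The subsets differed in their response for 3 of 9 genes, Enpp4 left out, by the interaction test of edgeR with RIPK3 medium, beside 1.14% of all genes. The 9 include Nt5e, from which no test is read. Limma on log2(count + 1) called 0 of the 3 genes. With RIPK3 medium the change in cDC1s less that in cDC2s was -1.18 for P2ry6 (adjusted p = 0.0151), -0.84 for P2rx7 (adjusted p = 0.0349) and -0.52 for Adora2a (adjusted p = 0.0165) on the log2 scale. With BimS medium the same difference was -0.56 for Adora2a. It is listed because it passed the interaction test, but that comparison served the choice of Enpp4, so the value is a description and nothing is read from it. In cDC2s the RIPK3 group holds 2 samples, and leaving out its replicate 2 left 0 of the 3 calls.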

How the results depend on the processing

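Of the fold changes of single genes, DESeq2 kept direction and call in 55 of 57, RLE size factors in 57 of 58, filterByExpr in 58 of 58, no filter in 54 of 58, limma on unscaled log2 counts in 44 of 58 and the replicate block in 46 of 58, the other 12 gaining a call. Leaving out a sample kept 620 of 665. These tallies include results that are given above without a test. Those are BimS against WT medium in cDC1s, the interaction for BimS medium, and Enpp4 where cDC1s enter. No support for them is read from the tallies. In cDC1s with RIPK3 against BimS medium the genes past the threshold were 2 by edgeR, 1 by limma, and 1 to 2 when a sample was left out. Enpp4 was among them in each case, from which nothing is read, so the result is P2rx4 alone, 1 of 8 genes, lost by limma and without BimS replicate 2 or RIPK3 replicate 2. With the replicate block 5 were called in cDC2s with BimS medium and 1 with RIPK3 against BimS medium. In the interaction for BimS medium 3 were called by DESeq2 (1.37% of all genes), 2 with RLE size factors (0.828%), 3 with no filter (1.01%), 0 by limma (0.351%), 4 with the replicate block (2.32%), and 1 to 4 when a sample was left out. In the interaction for RIPK3 medium limma called 0 (0.571% of all genes), leaving out a sample gave 0 to 3, and the replicate block added Entpd1 (-0.41, adjusted p = 0.00685). Of the list of 49 genes, that block called 2 in the interaction for BimS medium, Nlrp3 and Il1b, beside 2.32% of all genes, and 1 for RIPK3 medium, Il1b, beside 2.35%. Values near 0 changed sign: Adora2a in cDC2s was -0.05 with BimS and -0.13 with RIPK3 medium by limma, and -0.03 to 0.06 with BimS medium when a sample was left out, and Adora2b in cDC2s with RIPK3 medium was -0.27 to 0.07. The cause was not tested, except that limma ran without scaling, where the median of all genes was -0.12 in cDC1s and -0.17 in cDC2s with RIPK3 medium. There it called 768 genes higher and 1981 lower in cDC1s, against 1628 and 1598 by edgeR, and 364 and 1236 in cDC2s, against 756 and 631. Calls of all genes with the replicate block were 4103 against 1349 in cDC2s with BimS medium, 4126 against 1387 with RIPK3 medium, and 2755 against 73 between them, and 1730 against 810 in cDC1s between RIPK3 and BimS medium. Over all genes, leaving out a sample moved the calls by over 1.5 times in cDC1s between RIPK3 and BimS medium (810, and 489 without BimS replicate 3), in cDC2s with BimS medium (1349, and 783 without WT replicate 2, 896 without BimS replicate 1 and 878 without BimS replicate 2) and in the interactions for BimS (166, and 93 to 104 without cDC1 WT replicate 1 or cDC1 BimS replicates 1 or 3) and RIPK3 medium (217, and 111 without cDC2 RIPK3 replicate 2). In the interaction for RIPK3 against BimS medium the calls of all genes were 6, with 17 by DESeq2, 25 with no filter, 3 by limma, 27 with the replicate block, and 0 (without cDC2 RIPK3 replicate 2) to 10 (without cDC2 WT replicate 3) when a sample was left out. Depth limits Nt5e, Ada and, in cDC2s, Enpp4 and P2ry6.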
